A study of Mus musculus with 9 samples.

Results

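The genes described here carry tryptophan and vitamin B3 into NAD: Tdo2, Ido2, Kmo, Kynu, Haao, Acmsd, Qprt, Nampt, Naprt and Nadsyn1. They were chosen by name, for their place in the pathway, from the 16266 genes listed in both deposited expression tables. All 10 were listed, and all 10 passed the filter on low values in each comparison. RNA sequencing measured transcripts in 9 mouse liver samples, 3 in each of 3 groups, as FPKM (fragments scaled for gene length and sequencing depth). All mice received an adeno-associated virus, AAV8, by tail vein, with the TBG promoter, which is active in hepatocytes. After 3 weeks they were fed for 10 days and then given a binge. The pair-fed livers came from mice with the control virus (MCS-3×FLAG-WPRE), the control diet and a maltose binge. The ethanol-fed livers came from mice with the same control virus, the ethanol diet and an ethanol binge. The Mettl3 livers came from mice with the virus carrying Mettl3-3×FLAG, on the ethanol diet and ethanol binge, and no pair-fed mice with that virus were analysed here. The sample titles give feeding and Mettl3 status but do not name the virus. They mark the pair-fed and ethanol-fed samples as WT (wild type) and the Mettl3 samples as Mettl3OE. Strain, sex and age are not given in the sources used here. The labels number the samples without naming animals, so p-values measure the spread between these samples.

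The liver is the main site where tryptophan is turned into NAD, the coenzyme that alcohol dehydrogenase and aldehyde dehydrogenase reduce when they oxidise ethanol. Dioxygenases open the indole ring of tryptophan, and kynurenine is then hydroxylated and cleaved to reach an unstable intermediate, which either closes to quinolinate on the way to NAD or is diverted to combustion. NAD is also rebuilt from nicotinic acid (the Preiss-Handler route) and from nicotinamide (the salvage route).

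The libraries held 34656256 to 38159563 reads over the listed genes. Mettl3, the enzyme that writes m6A marks on RNA, was at 3.97, 3.10 and 3.38 FPKM in the pair-fed group, 5.44, 4.86 and 3.78 FPKM in ethanol-fed livers and 38.5, 25.0 and 33.3 FPKM in Mettl3 livers. All Mettl3 livers therefore lay above the other 6. Hepatocyte markers were high throughout, summed over 8 of 8 markers. The sum was 53853 to 59530 FPKM in the pair-fed group, 44881 to 61192 FPKM in ethanol-fed livers and 39609 to 48553 FPKM in Mettl3 livers. All Mettl3 livers were thus below all pair-fed livers in this sum. By the limma test of Mettl3 against pair-fed livers, 2 of the 8 markers were higher and 1 lower, against 13.9% and 34.9% of all genes. Liver 1 of the ethanol-fed group and liver 3 of the Mettl3 group stood nearest to the pair-fed livers, with mean correlations across genes of 0.954 and 0.956 against 0.906 to 0.942 for the other 4 ethanol-exposed livers.

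In pair-fed livers the members spanned a wide range of levels per length. Tdo2, the first and usually rate-limiting enzyme, was highest at 643 ± 104 FPKM (SD, n = 3). Kmo followed at 99.0 ± 4.39, Haao at 76.6 ± 3.73, Qprt at 67.3 ± 6.15 and Naprt at 40.6 ± 4.20 FPKM, each without overlap with its neighbours in the order. Kynu and Nampt overlapped each other at 29.2 ± 3.93 and 24.4 ± 2.30 FPKM, as did Ido2 and Nadsyn1 at 6.85 ± 1.53 and 5.41 ± 0.295 FPKM. Acmsd was lowest at 3.15 ± 1.26 FPKM. Tdo2 alone made up 54.1% to 74.9% of the members' summed FPKM in the 9 livers. The order depends on the gene length behind each FPKM. The deposited values imply 8003 bases for Ido2, where the merged exons of the GENCODE annotation cover 3636, and 1635 bases for Tdo2, where they cover 3881. For Kmo the lengths were 2498 and 4724, for Haao 3861 and 4681, and for Qprt 1197 and 2645. In ethanol-fed livers Haao, Qprt and Kynu overlapped in a middle tier, and in Mettl3 livers Qprt, Haao, Kynu, Naprt and Nampt overlapped from each to the next. By deposited FPKM Tdo2 and Kmo stayed first and second in every group. The order under other gene lengths was not computed.

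**Figure D1:**
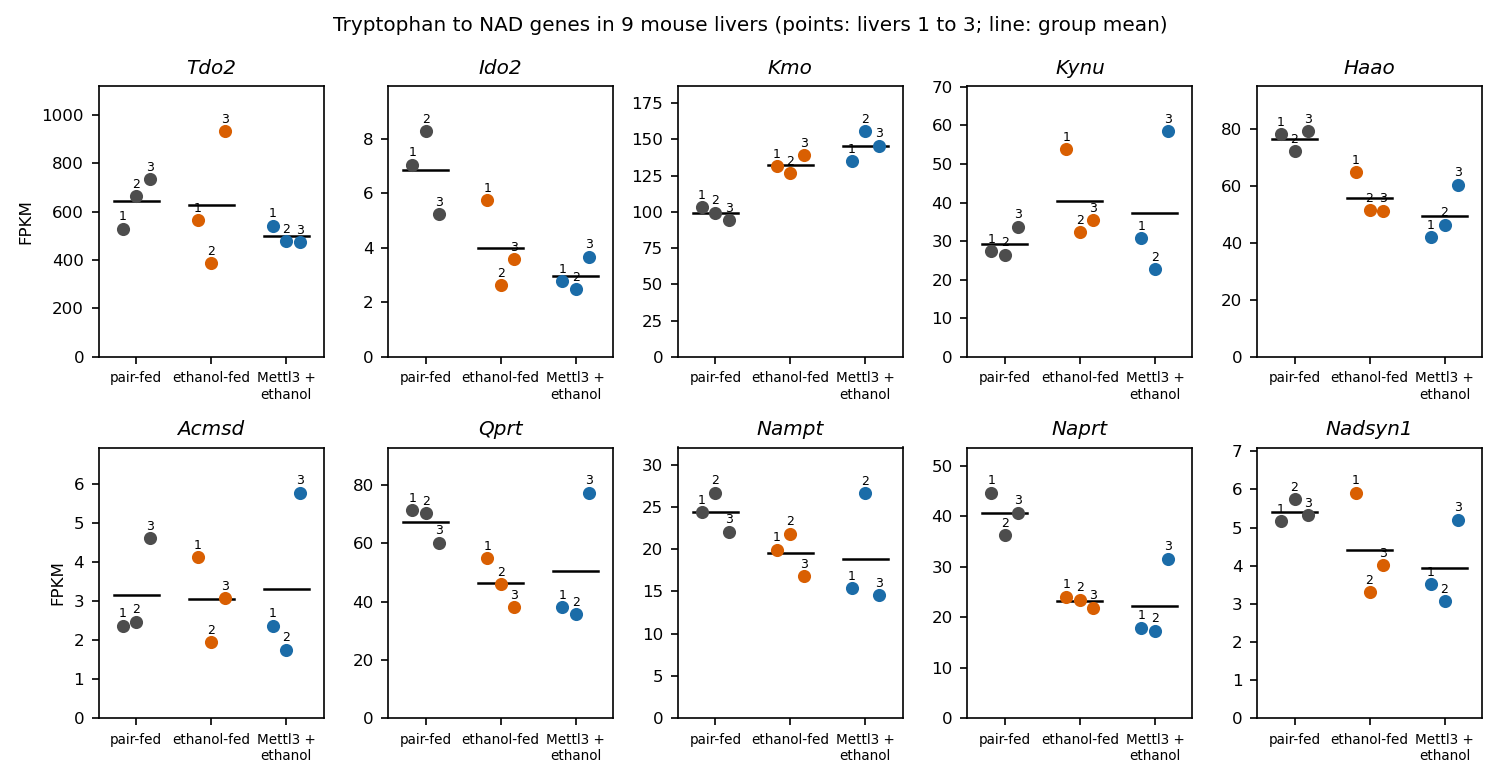
FPKM of each of the 10 genes (vertical axes, each from 0) in the pair-fed, ethanol-fed and Mettl3 livers; points are livers numbered 1 to 3 and lines are group means. Kmo is higher and Naprt lower in all ethanol-fed livers than in all pair-fed livers, and Tdo2 runs from 387 to 933 FPKM within the ethanol-fed group.

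The start regions of the members differ in composition, and those of 4 genes are shown because these genes are followed through the diet results: Kmo, which rose, Haao and Qprt, which fell, and Nampt, which did not pass the test. Each window is the 250 bases before the RefSeq start (GRCm38.p6), 5′ to 3′ on the gene's strand, with motif matches in capitals. RefSeq windows were matched for 7 of the 10 members; Ido2, Kynu and Naprt had no entry. The start used for Haao lies within the span of its gene model.
Kmo, chr1:175631943-175632192, plus strand: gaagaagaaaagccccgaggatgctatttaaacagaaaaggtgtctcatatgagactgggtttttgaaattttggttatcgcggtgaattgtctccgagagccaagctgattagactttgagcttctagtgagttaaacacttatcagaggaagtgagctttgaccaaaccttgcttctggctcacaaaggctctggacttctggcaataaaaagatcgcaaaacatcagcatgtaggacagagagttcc
Haao, chr17:83846791-83847040, minus strand: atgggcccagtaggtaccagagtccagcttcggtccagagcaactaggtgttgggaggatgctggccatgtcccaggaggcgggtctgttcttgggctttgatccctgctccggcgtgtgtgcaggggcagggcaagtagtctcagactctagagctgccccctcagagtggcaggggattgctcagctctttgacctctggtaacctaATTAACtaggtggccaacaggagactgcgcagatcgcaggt
Qprt, chr7:127122030-127122279, minus strand: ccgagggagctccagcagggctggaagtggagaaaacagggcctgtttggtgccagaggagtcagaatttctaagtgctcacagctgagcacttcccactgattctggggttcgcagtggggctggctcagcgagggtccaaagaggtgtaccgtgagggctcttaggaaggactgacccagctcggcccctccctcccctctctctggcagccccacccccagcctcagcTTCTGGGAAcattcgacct
Nampt, chr12:32820085-32820334, plus strand: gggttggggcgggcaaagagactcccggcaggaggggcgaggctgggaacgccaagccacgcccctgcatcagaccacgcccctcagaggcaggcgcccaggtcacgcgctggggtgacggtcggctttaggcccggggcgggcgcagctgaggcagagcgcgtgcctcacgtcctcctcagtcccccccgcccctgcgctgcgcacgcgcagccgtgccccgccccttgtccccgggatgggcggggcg
The Nampt window was 75.6% G and C with 27 CG pairs, against a median of 52.4% and 6 CG pairs over 32851 windows of the same length. The Kmo window was 42.8% G and C with 5 CG pairs, and those of Haao and Qprt held 58.4% and 60.8% with 6 CG pairs each. Among 8 motifs searched on both strands, Haao held the HNF1 core GTTAAT (as ATTAAC, 41 to 36 bases before the start), which 6.43% of all windows hold. Qprt held a STAT element, TTCNNNGAA, 19 to 11 bases before the start, which 7.02% of windows hold. Tdo2 held a CCAAT box (33.8% of windows) and TATAAA (12.4%). No member's window held CACGTG (6.02%), the HNF4 core CAAAGTCCA (0.384%), the C/EBP and ATF element TGATGCAA (0.791%) or the C/EBP core TTGCNNAA (9.56%). These matches describe letters only.

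The first comparison asks how ethanol feeding with a binge changed the pathway in mice with the control virus. Kmo, the mitochondrial hydroxylase of kynurenine, rose to 1.34 times the pair-fed mean. Naprt, the entry enzyme for nicotinic acid, fell to 0.571 times, Qprt, which makes the first NAD precursor from quinolinate, to 0.688 times, and Haao, which makes the precursor of quinolinate, to 0.729 times. So 4 of the 10 genes passed the limma test at an adjusted p below 0.05, 1 higher and 3 lower. Over all 10064 genes tested, 36.0% passed, 10.0% higher and 26.0% lower, so that the members' share was close to the background. Without pair-fed liver 1, 2 or 3 the member count was 2, 1 and 1, beside 22.0%, 15.7% and 15.7% of all genes. Without ethanol-fed liver 1, 2 or 3 it was 6, 2 and 2, beside 48.0%, 24.1% and 26.1% of all genes. Groups did not overlap for 5 members (the same 4 and Nampt, lower), against 52.6% of all genes, 15.4% higher and 37.2% lower. The median difference in log2(FPKM + 1) was -0.29 over the members and -0.14 over all genes tested, and 8 of 10 members lay below 0 against 64.7% of all genes. Scaling by the median ratio moves the median of all genes from -0.14 to 0.00. The 4 calls held under it and Kynu joined them, beside 34.9% of all genes. Tdo2 and Acmsd changed sign under it (to 0.06 and 0.10, without passing the test).

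**Figure D2:**
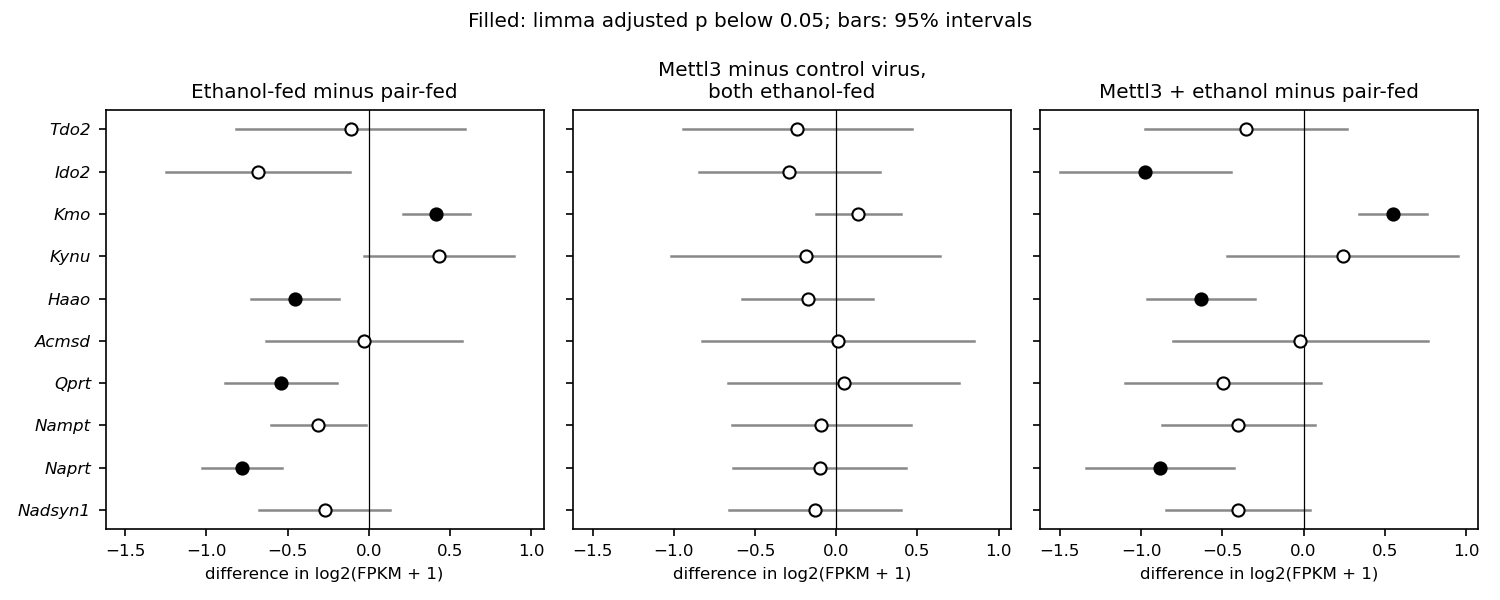
Differences in log2(FPKM + 1) (horizontal axes) of the 10 genes in 3 comparisons; bars are 95% intervals and filled points have a limma adjusted p below 0.05. Kmo lies right of 0 and Naprt and Haao left of 0 in the first and the third panel, and every interval in the middle panel spans 0.

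The dioxygenases that open tryptophan did not pass the test. Tdo2 (Entrez 56720, chromosome 3, 81958412 to 81975728, minus strand, GRCm38.p6) was at 529, 665 and 733 FPKM in the pair-fed group and 564, 387 and 933 FPKM in ethanol-fed livers. The ethanol-fed livers lay on both sides of the pair-fed range, and the difference was -0.11 on the log2 scale (95% interval -0.82 to 0.59, limma adjusted p = 0.786, n = 3 each). Ido2 (Entrez 209176, chromosome 8, 24531892 to 24576414, minus strand), a relative of Ido1, was at 7.04, 8.28 and 5.24 FPKM in the pair-fed group and 5.74, 2.63 and 3.59 FPKM in ethanol-fed livers. Ethanol-fed livers 2 and 3 were below all pair-fed livers and liver 1 was within their range. The difference for Ido2 was -0.68 (SE 0.24, limma adjusted p = 0.0617), and without ethanol-fed liver 1 it was -0.93 (adjusted p = 0.00706). That run called 48.0% of all genes, against 36.0% with all livers. Leaving out any other liver gave an adjusted p of 0.0729 to 0.192 for Ido2. Median-ratio scaling gave 0.102 and a fit of all 9 libraries 0.0498. Ido1, the inflammation-induced dioxygenase, was at 0.461 FPKM or less in every liver and below the filter.

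The enzymes that work on kynurenine moved in different directions. Kmo (Entrez 98256, chromosome 1, 175632193 to 175660853, plus strand) was at 103.1, 99.5 and 94.4 FPKM in the pair-fed group and 131.4, 126.6 and 139.0 FPKM in ethanol-fed livers. All ethanol-fed livers were above all pair-fed livers, and Kmo rose by 0.41 on the log2 scale (SE 0.09, 95% interval 0.21 to 0.62, limma adjusted p = 0.0120). Its call was lost without pair-fed liver 2 (adjusted p = 0.0580) or pair-fed liver 3 (0.0576), with the difference at 0.42 and 0.38. The neighbouring Fh1, which encodes fumarate hydratase of the citric acid cycle, lies on the opposite strand and overlaps the longest GENCODE model of Kmo by 5255 bases, and the RefSeq model by 0. Fh1 went from 71.3 ± 3.92 to 176 ± 32.7 FPKM (limma adjusted p = 0.00148), and its part in the Kmo reads was not tested, since whether reads were counted by strand is not given in the sources used here.

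Kynu (Entrez 70789, chromosome 2, 43555258 to 43683048, plus strand), which cleaves 3-hydroxykynurenine to 3-hydroxyanthranilate, was at 27.4, 26.5 and 33.7 FPKM in the pair-fed group and 53.8, 32.2 and 35.4 FPKM in ethanol-fed livers. Liver 1 was far above the rest and liver 2 lay within the pair-fed range. The difference was 0.43 (SE 0.20, limma adjusted p = 0.125), 0.60 under median-ratio scaling (adjusted p = 0.0327) and 0.21 without ethanol-fed liver 1 (adjusted p = 0.197). Macrophages can express Kmo and Kynu as well as hepatocytes. The summed level of 10 Kupffer cell markers was 311 to 354 FPKM in the pair-fed group and 170 to 251 FPKM in ethanol-fed livers. By the limma test 8 of the 10 were lower, against 26.0% of all genes. The 7 markers of monocyte-derived macrophages summed to 82.1 to 103 FPKM and 42.0 to 69.1 FPKM, with 1 of 1 tested, Lyz2, lower. The part of these cells in the Kmo and Kynu levels was not tested. In bulk liver, fewer cells of a type and less RNA per cell cannot be told apart.

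Haao (Entrez 107766, chromosome 17, 83831348 to 83848981, minus strand), the dioxygenase that opens 3-hydroxyanthranilate, was at 78.2, 72.4 and 79.3 FPKM in the pair-fed group and 64.8, 51.5 and 51.3 FPKM in ethanol-fed livers. All ethanol-fed livers were below all pair-fed livers, with liver 1 the closest to them. Haao fell by 0.46 on the log2 scale (SE 0.12, 95% interval -0.73 to -0.18, limma adjusted p = 0.0218). It no longer passed the test without pair-fed liver 1, 2 or 3 (adjusted p = 0.0727, 0.0610 and 0.0841) and without ethanol-fed liver 2 or 3 (0.0630 and 0.0633), where the difference ran from -0.50 to -0.40.

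After Haao the path forks. Acmsd (Entrez 266645, chromosome 1, 127729413 to 127767564, plus strand) encodes the decarboxylase that takes the intermediate away from NAD. It was at 2.37, 2.47 and 4.60 FPKM in the pair-fed group and 4.12, 1.95 and 3.07 FPKM in ethanol-fed livers. The ranges overlapped almost fully, with a difference of -0.03 (95% interval -0.63 to 0.57, limma adjusted p = 0.934). An antisense gene, 2900009J06Rik, shares 13948 bases with Acmsd and was at 0 to 1.37 FPKM. Its highest values were in ethanol-fed liver 1 and Mettl3 liver 3 (1.13), livers in which Acmsd was also the highest of its group. The pair-fed group went the other way: Acmsd was highest in liver 3, where 2900009J06Rik was at 0.116 FPKM, against 0.350 FPKM in liver 2. The shared bases are those of whole gene spans, and the overlap of exons was not computed. Where exons overlap, reads of the pair could not be told apart without strand.

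Qprt (Entrez 67375, chromosome 7, 127107770 to 127122029, minus strand), quinolinate phosphoribosyltransferase on the branch that leads to NAD, was at 71.4, 70.4 and 60.3 FPKM in the pair-fed group and 55.1, 46.0 and 38.1 FPKM in ethanol-fed livers. The groups did not overlap, and Qprt fell by 0.54 on the log2 scale (SE 0.15, 95% interval -0.88 to -0.20, limma adjusted p = 0.0269). It no longer passed the test without pair-fed liver 1, 2 or 3 (adjusted p = 0.0871, 0.0959 and 0.0537), without ethanol-fed liver 2 or 3 (0.0649 and 0.0628), and in a fit of all 9 libraries (0.145). The distance between Qprt and Acmsd on the log2(FPKM + 1) scale was 4.08 ± 0.546 in the pair-fed group and 3.57 ± 0.378 in ethanol-fed livers (SD, n = 3). That difference of -0.51 had an exact two-sided permutation p of 0.3, where 0.1 is the smallest that 3 against 3 allows. It was -0.82 without pair-fed liver 3, and -0.34, -0.37 and -0.36 without pair-fed liver 1, pair-fed liver 2 or ethanol-fed liver 3. Mettl3 livers were at 3.60 ± 0.118, a difference of 0.03 from ethanol-fed livers (exact two-sided permutation p = 0.8).

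Of the genes that use vitamin B3, Naprt fell, and Nampt and Nadsyn1 did not pass the test. Naprt (Entrez 223646, chromosome 15, 75890963 to 75894481, minus strand), nicotinate phosphoribosyltransferase, was at 44.7, 36.3 and 40.8 FPKM in the pair-fed group and 24.1, 23.5 and 21.9 FPKM in ethanol-fed livers. The ethanol-fed livers were all well below the pair-fed livers. Naprt fell by 0.78 on the log2 scale (SE 0.11, 95% interval -1.03 to -0.53, limma adjusted p = 0.00261), and the adjusted p was 0.0195 or less in every alternative run. Eef1d, a translation elongation factor gene on the same strand that shares 277 bases with Naprt in GENCODE and 0 in RefSeq, went from 21.4 ± 1.31 to 14.3 ± 1.18 FPKM (limma adjusted p = 0.00689), and its part in the Naprt reads was not tested.

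Nampt (Entrez 59027, chromosome 12, 32820335 to 32853369, plus strand), the rate-limiting enzyme of nicotinamide salvage, was at 24.4, 26.7 and 22.1 FPKM in the pair-fed group and 19.96, 21.8 and 16.8 FPKM in ethanol-fed livers. The groups just failed to overlap, at 22.1 against 21.8 FPKM, and the difference of -0.31 (SE 0.13) did not pass the limma test (adjusted p = 0.0891). Neutrophils also express Nampt: 8 of 9 listed neutrophil markers were measured and summed to 7.50 to 11.7 FPKM in the pair-fed group, and to 9.36, 69.0 and 75.8 FPKM in ethanol-fed livers 1 to 3. Of the 4 tested, 1 was higher, S100a8, against 10.0% of all genes. Ly6g and Ngp stayed under 1 FPKM in all livers, and the part of neutrophils in the Nampt level was not tested. Nadsyn1 (Entrez 78914, chromosome 7, 143795589 to 143822862, minus strand), the amidating enzyme that completes NAD from the tryptophan and nicotinic acid routes, was at 5.17, 5.74 and 5.32 FPKM in the pair-fed group and 5.92, 3.31 and 4.01 FPKM in ethanol-fed livers. Livers 2 and 3 were below all pair-fed livers and liver 1 above them. The difference was -0.27 (SE 0.17, limma adjusted p = 0.248), and -0.46 without ethanol-fed liver 1 (adjusted p = 0.0123). That run called 48.0% of all genes, against 36.0% with all livers. Leaving out any other liver gave an adjusted p of 0.325 to 0.592 for Nadsyn1, and median-ratio scaling gave 0.522.

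The authors' deposited table, made with DESeq2, gave q below 0.05 in this comparison to 4 members: Kmo (log2 fold change 0.61, q = 0.000101), Kynu (0.64, q = 0.00594), Qprt (-0.36, q = 0.0411) and Naprt (-0.62, q = 5.82e-05). Of the 16842 genes in the authors' deposited table, 26.6% had such a q, and Haao was at -0.28 (q = 0.0843). The limma test and the table thus shared Kmo, Qprt and Naprt, and differed on Haao and Kynu. They are not like for like, since the table scales reads by size factors. The limma test covered 10064 genes after the filter. Under median-ratio scaling limma gave Kynu 0.60 (adjusted p = 0.0327) and Haao -0.28 (adjusted p = 0.0466). Tdo2 and Acmsd were at 0.18 and 0.12 in the table (q = 0.725 and 0.830), against -0.11 and -0.03 by limma.

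Several genes around the pathway had larger differences than any member. Nnmt, which methylates nicotinamide for disposal, was at 12.8 ± 4.51 FPKM in the pair-fed group and 93.4 ± 34.1 FPKM in ethanol-fed livers, a rise of 2.77 on the log2 scale (SE 0.32, limma adjusted p = 0.00171). The aldehyde oxidases that oxidise the methylated product fell. Aox3 went from 43.4 ± 4.95 to 11.5 ± 0.912 FPKM (-1.83, limma adjusted p = 0.000424) and Aox1 from 12.4 ± 1.41 to 5.25 ± 1.72 FPKM (-1.12, adjusted p = 0.00549). Among 19 tested genes of NAD consumption and nicotinamide clearance, 1 was higher and 5 lower, against 10.0% and 26.0% of all genes. The other lower genes were Sirt7 (-0.76, adjusted p = 0.00511) and, named after their values were seen, Sirt3 and Parp1. Under median-ratio scaling the counts were 3 higher and 4 lower, against 1729 higher and 1783 lower of 10064 genes.

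Of 4 tested kynurenine enzymes that are not among the members, 3 fell and 0 rose, against 26.0% and 10.0% of all genes. Afmid, the formamidase that releases kynurenine, went from 15.2 ± 1.30 to 7.87 ± 0.469 FPKM (-0.87, limma adjusted p = 0.00184). Kyat3 and Aadat, transaminases that make kynurenic acid, changed by -0.73 and -0.61 (adjusted p = 0.00515 and 0.0119), and Kyat1 by -0.33 (adjusted p = 0.125). The Aadat call was lost without pair-fed liver 2 or 3 (adjusted p = 0.0569 and 0.0505).

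Among 8 tested genes of NAD salvage and finishing, 1 rose and 3 fell, against 10.0% and 26.0% of all genes. Nadk2, the mitochondrial NAD kinase, went from 52.1 ± 3.03 to 23.9 ± 3.71 FPKM (-1.10, limma adjusted p = 0.00179). Slc25a51, the mitochondrial NAD carrier, rose from 12.5 ± 1.04 to 19.9 ± 2.77 FPKM (0.62, adjusted p = 0.00936). The cytosolic kinase Nadk and the nuclear adenylyltransferase Nmnat1 were lower by the limma test (-0.43 and -0.40, adjusted p = 0.0133 and 0.0258). Both calls were lost without pair-fed liver 1, 2 or 3 (adjusted p of 0.0527, 0.0581 and 0.0574 for Nadk and 0.0560, 0.0986 and 0.0993 for Nmnat1). The Nmnat1 call was also lost without ethanol-fed liver 2 or 3 (0.0590 and 0.0558) and with the replicate number as a block (0.0638), and that of Nadk in the fit of all 9 libraries (0.0504).

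Of 8 tested genes for tryptophan transport and other fates, 0 passed the test as higher and 2 as lower, against 10.0% and 26.0% of all genes. Inmt, which methylates tryptamine, went from 425 ± 79.4 to 109 ± 4.65 FPKM (-1.94, limma adjusted p = 0.000488). The other, the amino acid carrier Slc7a8, was at 1.31 ± 0.134 and 0.736 ± 0.193 FPKM and passed the filter on low values only through the pair-fed group, so that no weight is put on its call, and it was not tested without any 1 of the pair-fed livers. Wars1, the tryptophanyl-tRNA synthetase, was at 4.73 ± 0.547 and 8.47 ± 3.43 FPKM (adjusted p = 0.0745). Kynurenines are ligands of the aryl hydrocarbon receptor, and 2 of the 5 tested genes of that receptor changed, in opposite directions, against 36.0% of all genes. Tiparp rose from 3.75 ± 0.0686 to 7.81 ± 0.484 FPKM (0.89, limma adjusted p = 0.00117), and Cyp1a2 fell from 149 ± 31.0 to 79.2 ± 16.2 FPKM (-0.90, adjusted p = 0.0137). The Cyp1a2 call was lost without pair-fed liver 2 or 3 (adjusted p = 0.0583 and 0.0593).

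**Figure D3:**
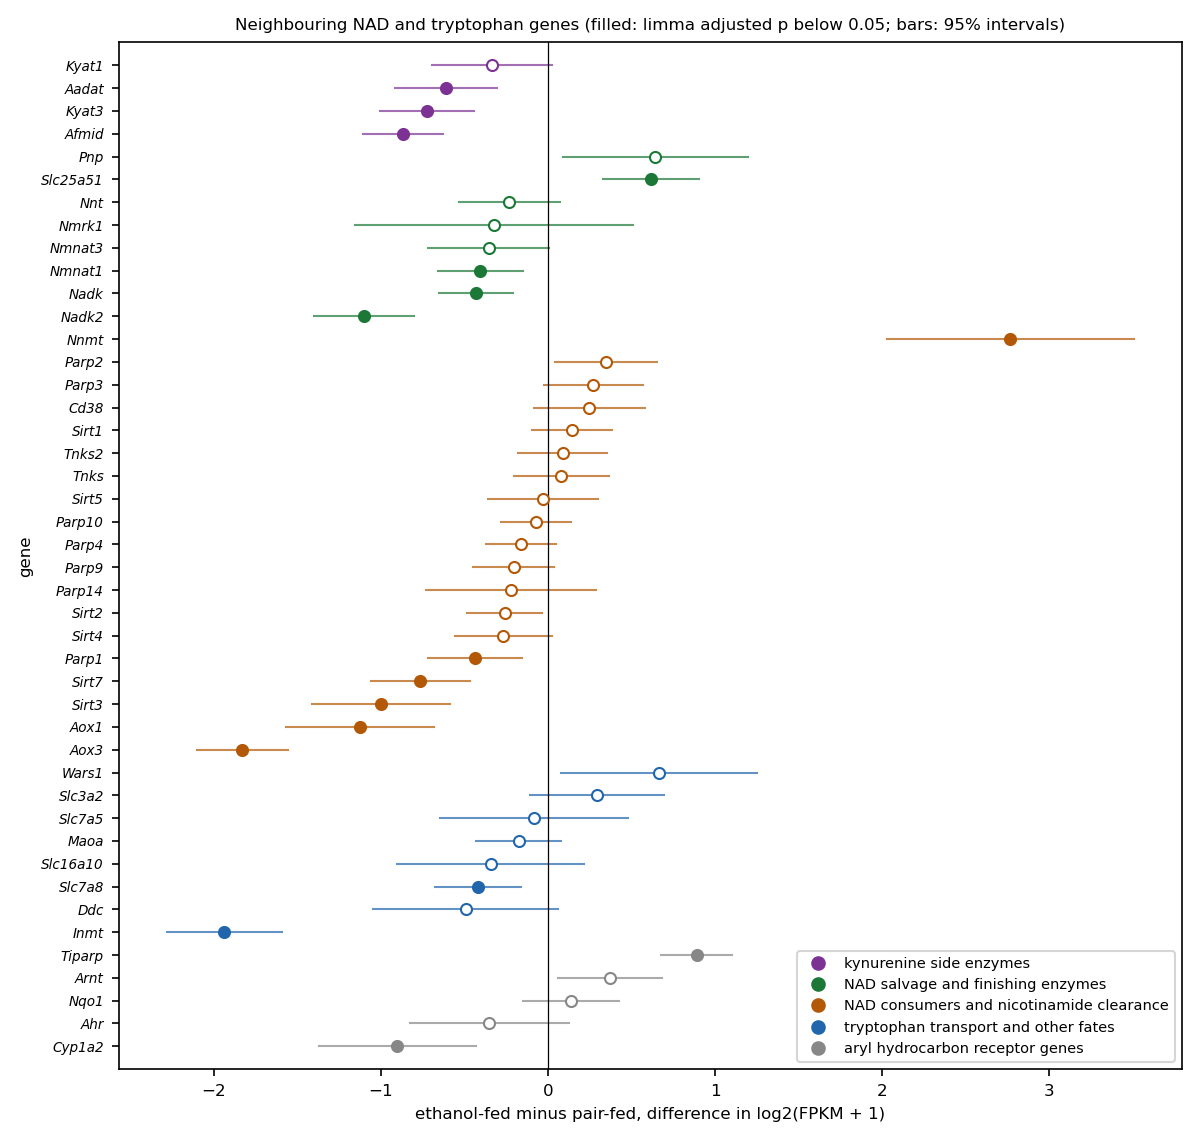
Ethanol-fed minus pair-fed difference in log2(FPKM + 1) (horizontal axis) of the tested genes of 5 lists around the pathway, coloured by list; bars are 95% intervals and filled points have a limma adjusted p below 0.05. Nnmt lies furthest right at 2.77, and Inmt and Aox3 furthest left at -1.94 and -1.83.

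The second comparison asks whether the Mettl3 virus changed the pathway under ethanol. Of the 10 members, 0 passed the limma test, 0 had an unadjusted p below 0.05 and 0 had groups that did not overlap. Over 9706 genes tested, 0.0103% passed (Mettl3 itself), 7.45% had an unadjusted p below 0.05 and 12.8% had groups that did not overlap. limma-voom on the recovered reads called 0 members, and the authors' deposited table gave q below 0.05 to 0 members and to 0.613% of its genes. Mettl3 itself was higher by 2.54 on the log2 scale (SE 0.19, limma adjusted p = 0.0257). That call was lost without ethanol-fed liver 2 or 3 (adjusted p = 0.201 and 0.137), without Mettl3 liver 1 or 3 (0.160 and 0.107), without the filter (0.0875) and with the replicate number as a block (0.238). The difference stayed at 2.40 to 2.70 when single livers were left out. The authors' DESeq2 test gave Mettl3 a log2 fold change of 2.87 (q = 5.3e-40). Since limma can lose a difference of this size here, 0 member calls do not show that the members were unchanged.

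The precision of this comparison differed between members. For Kmo, at 135.1, 155.7 and 145.7 FPKM in Mettl3 livers, the 95% interval was -0.13 to 0.40. For Haao, at 42.1, 46.5 and 60.5 FPKM, it was -0.58 to 0.23. The Mettl3 livers overlapped with the ethanol-fed livers for both genes. Naprt, at 18.0, 17.4 and 31.6 FPKM, had 2 livers below and 1 above all ethanol-fed livers, with an interval of -0.63 to 0.43. Qprt was at 38.1, 35.8 and 77.5 FPKM (-0.67 to 0.76), with liver 2 below all ethanol-fed livers and liver 3 above every ethanol-fed and pair-fed liver. Kynu was at 30.8, 22.7 and 58.5 FPKM (-1.02 to 0.64) and Acmsd at 2.37, 1.76 and 5.77 FPKM (-0.83 to 0.85), again with liver 3 the highest of its group. Tdo2 was at 542, 479 and 475 FPKM (-0.95 to 0.46) and Ido2 at 2.78, 2.49 and 3.67 FPKM (-0.85 to 0.27). Nampt, at 15.4, 26.6 and 14.5 FPKM, was high in liver 2 (-0.64 to 0.46), the liver with the highest neutrophil marker sum (108 FPKM, against 78.5 and 49.6 in livers 1 and 3). In the ethanol-fed group the liver with the highest marker sum, liver 3, had the lowest Nampt level. The part of neutrophils in these levels was not tested. Nadsyn1 was at 3.51, 3.06 and 5.21 FPKM (-0.66 to 0.40). All 10 intervals span 0.

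Several members were highest in the same livers. Ido2, Kynu, Haao, Acmsd, Qprt, Naprt and Nadsyn1 were highest in liver 1 of the ethanol-fed group and in liver 3 of the Mettl3 group, the livers nearest to the pair-fed ones. Liver 1 was highest of the 3 for 59.99% of all genes and liver 3 for 56.4%. Kynu lay above the pair-fed mean in both livers, by 0.87 and 0.99 on the log2 scale, while Haao lay below it in both, by -0.24 and -0.34. Tdo2, Kmo and Nampt were highest in other livers of these groups. Neutrophil markers summed to 9.36 FPKM in ethanol-fed liver 1 and 49.6 FPKM in Mettl3 liver 3, the lowest of each group, and their part in the members' levels was not tested.

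**Figure D4:**
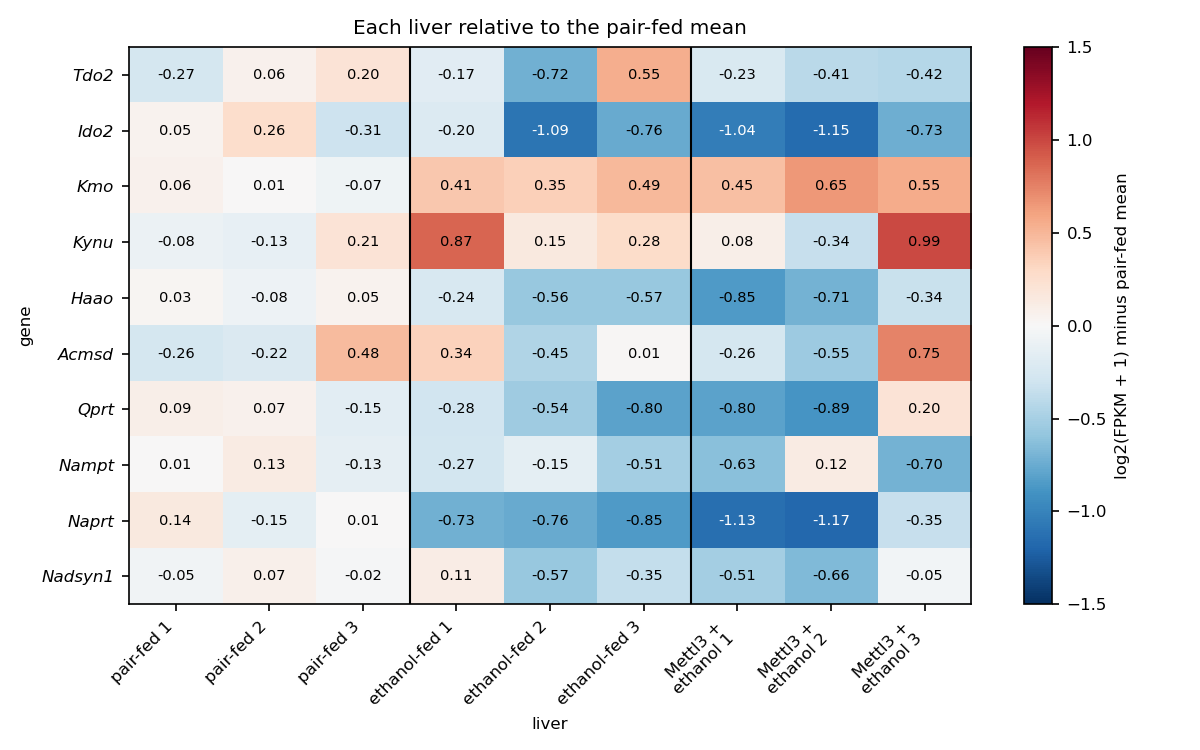
log2(FPKM + 1) of each gene (rows) in each liver (columns) minus its pair-fed mean, red above and blue below. Kmo is red in all 6 ethanol-exposed livers, Haao and Naprt are blue in all 6, and Kynu reaches 0.87 and 0.99 in ethanol-fed liver 1 and Mettl3 liver 3.

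The third comparison set the Mettl3 livers against the pair-fed livers, so that virus and diet differed together. It shares its pair-fed libraries with the first comparison and its Mettl3 libraries with the second. Kmo was higher by 0.55 (SE 0.09, limma adjusted p = 0.00222), and Haao (-0.63, adjusted p = 0.00803), Ido2 (-0.97, adjusted p = 0.00893) and Naprt (-0.88, adjusted p = 0.00735) were lower. These 4 of 10 compare with 48.8% of 10229 genes tested, 13.9% higher and 34.9% lower. Their groups did not overlap, as was the case for 63.6% of all genes (19.3% higher, 44.2% lower), and the 4 calls held in every alternative run. The median difference was -0.40 over the members and -0.18 over all genes tested.

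The standing of 3 other members in this comparison changed when single Mettl3 livers were left out. Qprt was at -0.50 (limma adjusted p = 0.150) with all livers and at -0.85 (0.00215) without Mettl3 liver 3. Nadsyn1 was at -0.40 (0.116) and without that liver at -0.58 (0.0248). Nampt was at -0.40 (0.136) and without Mettl3 liver 2 at -0.67 (0.0105). The run without Mettl3 liver 3 called 55.7% of all genes and the run without Mettl3 liver 2 called 33.7%, against 48.8% with all livers. With ethanol-fed liver 1 and Mettl3 liver 3 both left out, an alternative chosen after seeing the data, 6 members were called, 1 higher and 5 lower, against 61.7% of all genes. Tdo2, Kynu and Acmsd did not pass the test with or without these livers.

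In the surrounding lists the Mettl3 comparison gave 0 calls among 41 tested genes by limma and 0 by limma-voom. By limma 4 of the 41 had an unadjusted p below 0.05, against 7.45% of all genes. In Mettl3 livers Nnmt was at 142 ± 24.8 FPKM, Aox3 at 9.31 ± 1.51, Afmid at 5.75 ± 1.35 and Nadk2 at 22.3 ± 5.22 FPKM. Tiparp spread from 2.29 to 7.80 FPKM there, against 7.51 to 8.36 FPKM in ethanol-fed livers. Against pair-fed livers, Nnmt was higher by 3.41 and Aox3 lower by -2.11 (limma adjusted p = 0.000212 and 0.000139). All 4 tested kynurenine enzymes outside the members were lower, against 34.9% of all genes. Under median-ratio scaling 2 of the 4 were lower, against 2436 of 10229 genes. Tiparp was called in the ethanol comparison and was at 0.20 here (adjusted p = 0.568).

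Tdo2, the first enzyme of the path, and Nampt, of nicotinamide salvage, were each set beside the 10229 tested genes by Pearson correlation of log2(FPKM + 1) over the 9 livers, as a description. The genes nearest to Tdo2 were Bcl2l1 (0.913), Cdkn2aipnl (0.908), Hspb1 (0.906), Lurap1l (0.901) and Cdh5 (0.888). Those near to Nampt included Nceh1 (0.934), Gdap10 (0.903), Morc3 (0.900) and Oga (0.899). Gdap10 lies on the same strand as Nampt and shares 2804 bases of gene span with it. Reads may be counted for either gene where exons overlap, which was not computed.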

How the data were processed

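RNA sequencing measured transcripts in 9 mouse liver libraries, 3 per group, and groups were taken from the sample titles. Per the submitters' processing notes, fastp, HISAT2 and HTSeq were used on mouse build mm10, and versions are not given. The authors deposited FPKM for every library in 2 tables of 16842 and 16470 genes, and values of libraries in both tables differed by a relative 5e-08 at most. Further columns, per the file headers, are a signal (mean read counts over size factors), a linear ratio of group means, its log2, and the p-value and q-value of the authors' DESeq2 test. Whole reads were recovered from the signal and FPKM for 100% of genes within a tolerance of 0.05.

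limma 3.58.1 in R 4.3.3 (trend and robust settings) was run on log2(FPKM + 1) keeping genes that reached an FPKM of 1 in 3 or more fitted libraries, with Benjamini-Hochberg adjustment over all genes and a threshold of 0.05. Fold changes are on that scale, on which low genes appear to change less than they do. The ethanol and Mettl3 comparisons used their own 6 libraries, and Mettl3 against pair-fed livers a fit of all 9. A count test had been planned in case counts were deposited and was not used. The fit was tested on simulated data. Alternatives were a pseudocount of 0.1, no filter, median-ratio scaling, limma-voom on recovered reads, the replicate number as a block, other sets of libraries in the fit and leaving out each library.

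The members and lists were chosen with earlier results of these data known. The text names all members, Mettl3, up to 4 genes per surrounding list with the smallest p in the ethanol comparison and up to 2 in the Mettl3 comparison, and for Tdo2 and Nampt the 5 genes of highest correlation, of which some are not reported here. Overlapping genes, marker genes and genes said to be named after their values were seen fall outside that rule. Positions are from RefSeq (GRCm38.p6), and overlaps from GENCODE M21 and RefSeq. Python 3.11.15 with pandas 2.3.3 and scipy 1.17.1 made the tables.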

Additional observations from a re-analysis of the deposited data

How the results depend on the processing

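In the ethanol comparison 4 members passed the test, and 4 or 5 under each alternative that kept all libraries; leaving out 1 library gave 1 to 6, and 1538 to 4743 calls over all genes against 3625. Of the 4, Naprt kept its call under every alternative run. In the Mettl3 comparison 0 members were called under every alternative, and 0 to 3 genes over all. Against pair-fed livers, Mettl3 livers gave 4 to 6 member calls, and 3342 to 6229 over all genes. Median-ratio scaling moved the share of lower calls from 72.2% to 50.8% (ethanol) and from 71.5% to 50.6% (Mettl3 livers against pair-fed), and gave reversed signs for Tdo2 (0.061) and Acmsd (0.10) in the first and Acmsd (0.14) in the second.

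No sign was seen that the replicate numbers pair the livers. Same-numbered deviations correlated at -0.41 to 0.39, and 3 of 9 pairs correlated best with their own number. With 3 livers per group this check cannot exclude a pairing. With the replicate number as a block, the member calls were 4, 0 and 4, and 2778 genes were called in the ethanol comparison. Nmnat1 lost its call (adjusted p = 0.0638), as did Mettl3 in the Mettl3 comparison (0.238).

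Leaving out single livers changed the sign of differences that had not passed the test. Ranges were -0.45 to 0.19 for Tdo2 and -0.22 to 0.21 for Acmsd (ethanol). In the Mettl3 comparison they were -0.54 to 0.091 for Tdo2, -0.56 to 0.10 for Kynu, -0.37 to 0.28 for Acmsd, -0.30 to 0.24 for Qprt, -0.35 to 0.060 for Nampt, -0.37 to 0.042 for Naprt and -0.31 to 0.061 for Nadsyn1. A pseudocount of 0.1 put Acmsd at -0.0078 there. Against pair-fed livers they were -0.40 to 0.24 for Acmsd and -0.13 to 0.53 for Kynu. Without ethanol-fed liver 1 and Mettl3 liver 3, chosen after seeing the data, Acmsd (-0.18), Qprt (-0.18) and Nampt (0.079) reversed in the Mettl3 comparison and Kynu (-0.13) against pair-fed livers. The cause was not tested. With 3 livers per group, the 95% intervals of Kynu and Acmsd in the Mettl3 comparison spanned over 1.5 log2 units, and Acmsd rested on 178 to 600 reads per library.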
